A study of Mus musculus with 15 samples.

Results

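A set of 9 genes that mark progenitor states of the adipose stroma were followed through 5 flow-sorted populations. They were picked by symbol as Dpp4, Pi16, Cd55, Cd248, Ly6a, Cd34, Anxa3, Thy1 and F3, and all 9 of 9 were found among the 10222 gene symbols of the expression table. The populations were multipotent stromal cells of white adipose tissue (WAT-MSCs, labelled mesenteric) with and without Il33-citrine, called Il33+ and Il33- here, CD31+ endothelial cells from WAT, Il33+ MSCs from lung and Epcam+ epithelial cells from lung. Each had 3 libraries, giving 15 in all. Every mouse carried the same C57BL/6 background and a heterozygous Il33-citrine reporter, no treatment was given in the labels, and the age of the mice was not given in the sources used here. The replicates came from independent experiments, and the labels do not say how many mice were pooled for each.

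The gates set what can be asked of these genes. WAT-MSCs were CD45-, Epcam-, CD31- and CD24- and stained for PDGFRα, CD34, Sca1 and podoplanin. Sca1 is the protein of Ly6a, so Ly6a and Cd34 were part of the sort, and their levels in WAT-MSCs against endothelium or epithelium are a description. Both kinds of WAT-MSC passed the same gate and differed only in citrine. Endothelial cells were CD45-, Epcam- and CD31+, and epithelial cells CD45- and Epcam+. The gate of the lung MSCs is not given in the sources used here.

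Adipose stroma holds several fibroblast-like states. Early progenitors that express Dpp4 and Pi16 lie in the connective tissue sheet around the tissue and in the adventitia of larger vessels, and they can give rise to committed preadipocytes, which lie nearer the adipocytes and carry genes of lipid storage and basement membrane. A further state carries F3 on its surface and is known for restraining adipocyte formation by its neighbours. Cells around vessels in many organs, lung included, share the Pi16 and Cd34 pattern of the adventitia.

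The reporter gene followed the labels: Il33 was at 38.71, 78.48 and 41.85 RPKM (reads per kilobase of transcript, scaled to the mapped reads of the library) in Il33+ WAT-MSCs and lower in the Il33- fraction, at 6.76, 4.31 and 4.49 RPKM. Each library had 42711843 to 60773158 alignments, so that 1 RPKM stood for 42.7 to 60.8 reads per kb of transcript, and errors are SDs over the 3 libraries of a population. The stromal genes Pdgfra and Col1a1 were expressed in all 9 MSC libraries (lowest values 40.64 and 557.3 RPKM). Pecam1 and Cdh5 were at 144.38 RPKM or more in every endothelial library, and Epcam was at 25.93 to 39.77 RPKM in epithelium and at 0.28 RPKM or less elsewhere. Transcripts of other cell types were present in several populations. The WAT endothelial libraries held stromal transcripts, with a median over 12 pan-stromal genes of 30.3, 32.9 and 64.8% of the level in Il33+ WAT-MSCs, and the Rgs5 of pericytes at 188 ± 41.2 RPKM (SD, n = 3). Scgb1a1, a secreted protein of airway epithelium, took 57.7 to 62.9% of the summed RPKM of the epithelial libraries. RPKM is scaled to mapped reads, so other values there are lowered by its share of the reads, which was not computed. The epithelial libraries also held endothelial transcripts, with Cdh5 at 16.90 to 33.26 RPKM and Pecam1 at 12.36 to 19.10 RPKM.

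The genes lie on 8 chromosomes of the mm10 build and differ widely in form (GENCODE M21). Dpp4 (chr2:62330073-62412231, minus strand, 26 exons) and Pi16 (chr17:29317680-29330593, plus strand, 7 exons in the listed transcript) mark the early state. Cd55 lies at chr1:130439027-130462744 on the minus strand, Cd34 at chr1:194938819-194961279, Anxa3 at chr5:96793339-96845966, Thy1 at chr9:44043384-44048579 and F3 at chr3:121723537-121735048, the last 4 on the plus strand. Cd248 (chr19:5068078-5070682, plus strand) is a single exon, and Ly6a lies at chr15:74994877-74998031 on the minus strand. Annotated genes on the opposite strand share 232 exonic bases with Dpp4, 222 with Pi16, 102 with Cd55 and 148 with Cd34, and a gene model on the same strand shares 112 with Anxa3. Strand-specific counting was not stated, so reads of these overlaps cannot be told apart.

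The 250 bases upstream of the start are shown for 3 of the genes whose libraries did not overlap between the WAT-MSC fractions and whose window touches no annotated UTR, since they show how unlike the control regions of these markers are. Sequences are from RefSeq (GRCm38.p6), 5′ to 3′ on the strand of the gene, and capitals mark motif matches found on either strand: the GC box (GGGCGG, read as CCGCCC from the opposite strand), the TATA box (TATAAA) and the AP-1 site (TGACTCA, read as TGAGTCA from the opposite strand). None of these motifs overlaps another here.
Cd55, chr1:130462745-130462994: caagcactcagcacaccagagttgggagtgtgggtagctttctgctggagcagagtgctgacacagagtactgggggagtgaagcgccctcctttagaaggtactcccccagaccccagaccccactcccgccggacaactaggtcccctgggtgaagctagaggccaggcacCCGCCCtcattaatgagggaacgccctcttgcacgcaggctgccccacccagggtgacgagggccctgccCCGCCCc
Dpp4, chr2:62412232-62412481: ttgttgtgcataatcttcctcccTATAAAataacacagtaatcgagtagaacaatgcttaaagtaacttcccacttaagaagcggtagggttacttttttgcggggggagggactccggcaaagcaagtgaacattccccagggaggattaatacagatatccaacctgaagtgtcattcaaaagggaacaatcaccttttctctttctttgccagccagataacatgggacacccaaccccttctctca
F3, chr3:121723287-121723536: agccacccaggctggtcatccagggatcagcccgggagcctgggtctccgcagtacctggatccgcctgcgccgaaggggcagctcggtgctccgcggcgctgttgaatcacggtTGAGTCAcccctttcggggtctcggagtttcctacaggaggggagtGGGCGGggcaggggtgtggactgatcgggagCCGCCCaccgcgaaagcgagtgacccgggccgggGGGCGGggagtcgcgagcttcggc
The Cd55 window is 64% G and C and holds 2 GC boxes, 7 and 77 bases before the start. The F3 window reaches 70% G and C, with 3 GC boxes 24, 58 and 89 bases before the start and an AP-1 site at 135. The Dpp4 window is poorer in G and C (43.6%, against a median of 52.4% over 32851 windows) and holds a TATAAA only at 227 bases, far from the start. Of all windows, 32.7% hold a GC box, 12.4% the TATAAA and 4.46% the AP-1 letters. CCAAT and the E-box CACGTG were also searched and were in none of these 3 windows (33.9 and 6.02% of all windows hold them). Windows were given for 5 of the 9 genes, those of Cd34 and Pi16 touch an annotated UTR and are not shown, and a match is a description, not a site.

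The early progenitor markers Dpp4 and Pi16 were both higher in level in Il33+ than in Il33- WAT-MSCs, with no overlap between libraries, but at very different levels. Dpp4, a surface peptidase also called CD26, was a low transcript. Its RPKM in the 3 libraries was 6.50, 8.03 and 9.31 in Il33+ WAT-MSCs and 2.62, 2.85 and 2.37 in Il33- WAT-MSCs. It was 3.35, 7.24 and 6.33 in WAT endothelium, 6.12, 2.71 and 1.67 in lung Il33+ MSCs and 1.19, 3.18 and 2.52 in lung epithelium. Il33+ WAT-MSCs stood first, but their range overlapped that of endothelium, the next in order, and each later neighbour overlapped the one before.

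Pi16, a peptidase inhibitor tethered to the cell surface, covered a far wider range. It reached 351.84, 426.38 and 494.78 RPKM in lung Il33+ MSCs, where its mean of 424 ± 71.5 RPKM (SD, n = 3) ranked 56th of all symbols. In Il33+ WAT-MSCs it was at 80.99, 60.77 and 85.69 RPKM, and in Il33- WAT-MSCs at 10.10, 12.65 and 14.45 RPKM. Lung stroma thus stood above every other library, and the 2 WAT-MSC populations did not overlap. The endothelial libraries were scattered, at 19.30, 32.89 and 76.01 RPKM, the last of them inside the range of Il33+ WAT-MSCs. Epithelium was lowest at 0.93, 5.05 and 7.98 RPKM.

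Cd55 encodes decay-accelerating factor, which protects cells from complement, and is expressed beyond the stroma. Its RPKM was 108.98, 180.69 and 111.29 in Il33+ WAT-MSCs, above every other library. Epithelium came second, with 73.52, 99.26 and 89.90 RPKM, followed by endothelium, with 53.40, 67.67 and 52.94 RPKM. None of these 3 neighbours overlapped. Lung Il33+ MSCs (50.21, 30.33 and 42.98 RPKM) and Il33- WAT-MSCs (24.17, 35.12 and 34.76 RPKM) formed the low end and overlapped. The low Cd55 of lung stroma stands opposite to its high Pi16. Cd55b, the paralogue of Cd55, was not analysed here, so reads the copies share cannot be assigned.

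Cd248 and Cd34 were broad stromal genes. Cd248, or endosialin, a membrane glycoprotein of fibroblasts and pericytes, was at 287.40, 216.76 and 355.97 RPKM in Il33+ WAT-MSCs and at 170.72, 162.53 and 200.35 RPKM in Il33- WAT-MSCs. Lung MSCs were at 172.53, 158.09 and 187.54 RPKM, and endothelium at 112.34, 124.38 and 187.30 RPKM. Only Il33+ WAT-MSCs stood clear of the next population, and epithelium had almost none (2.16, 3.20 and 4.06 RPKM).

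Cd34, a sialomucin of progenitors and vessels, was the steadiest of the 9 between libraries in the MSCs. It was at 225.04, 250.04 and 207.95 RPKM in Il33+ WAT-MSCs, 187.33, 179.10 and 168.53 RPKM in lung MSCs and 146.38, 138.54 and 147.23 RPKM in Il33- WAT-MSCs. These 3 stromal populations did not overlap. Endothelium, at 144.39, 108.33 and 156.49 RPKM, overlapped Il33- WAT-MSCs, and epithelium held 4.66, 6.16 and 6.84 RPKM. Cd34 was listed as 2 transcripts, one with 382 and one with 325 codons, and the one with more codons took 47.8 to 66.8% of the summed RPKM in the 12 libraries other than epithelium. In Il33- WAT-MSCs that share spread from 47.8 to 66.8% and in Il33+ WAT-MSCs from 51.7 to 57.9%, one range within the other.

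Ly6a, the gene of Sca1, was among the highest of the 9 and was scattered widely in Il33- WAT-MSCs and endothelium. Its RPKM, summed over 6 listed transcripts, was 338.17, 319.22 and 521.60 in Il33+ WAT-MSCs and 131.13, 272.24 and 384.22 in Il33- WAT-MSCs. It was 362.16, 461.00 and 556.00 in lung MSCs and 96.66, 289.29 and 476.21 in endothelium. All 4 ranges overlapped their neighbours, and only epithelium, at 30.16, 54.25 and 65.90 RPKM, stood apart. Ly6a belongs to a family of close copies whose reads aligners can split. Of that family, Ly6c1 averaged 132 ± 40.7 RPKM in the Il33+ and 36.7 ± 8.24 RPKM in the Il33- fraction of WAT-MSCs, with its highest level in endothelium (212 ± 57.7 RPKM). Ly6e averaged 148 ± 50.6 and 167 ± 67.1 RPKM in the same 2 WAT-MSC populations (SD, n = 3 each), Ly6d was listed at 0 in all 9 WAT libraries, and Ly6c2 was not analysed here.

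Anxa3, a phospholipid-binding annexin, was the only one of the 9 with its highest mean in endothelium (22.73, 25.44 and 15.07 RPKM). Il33+ WAT-MSCs were at 13.43, 19.40 and 11.85 RPKM and overlapped endothelium. Il33- WAT-MSCs (9.37, 8.10 and 6.19 RPKM), lung MSCs (8.43, 7.56 and 10.99 RPKM) and epithelium (5.65, 5.75 and 11.02 RPKM) were lower, and these 3 overlapped.

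Thy1 (CD90), a surface glycoprotein of fibroblasts, was the only one with its highest mean in Il33- WAT-MSCs, at 42.73, 61.34 and 54.91 RPKM. Il33+ WAT-MSCs were at 30.05, 53.23 and 35.76 RPKM and endothelium at 25.52, 30.30 and 49.11 RPKM, and the 3 WAT populations overlapped. Lung MSCs held 7.76, 11.64 and 16.03 RPKM, below every WAT library and above every epithelial one (0.31, 0.59 and 1.03 RPKM).

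F3, tissue factor, starts blood coagulation and marks the stromal state that restrains adipocyte formation. It was at 58.40, 53.11 and 81.53 RPKM in Il33+ WAT-MSCs and at 23.38, 33.83 and 42.15 RPKM in Il33- WAT-MSCs, which did not overlap. Lung MSCs (25.06, 30.34 and 55.54 RPKM), endothelium (17.17, 24.75 and 51.86 RPKM) and epithelium (9.90, 11.39 and 22.38 RPKM) followed, each overlapping its neighbour in the order of means.

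**Figure D1:**
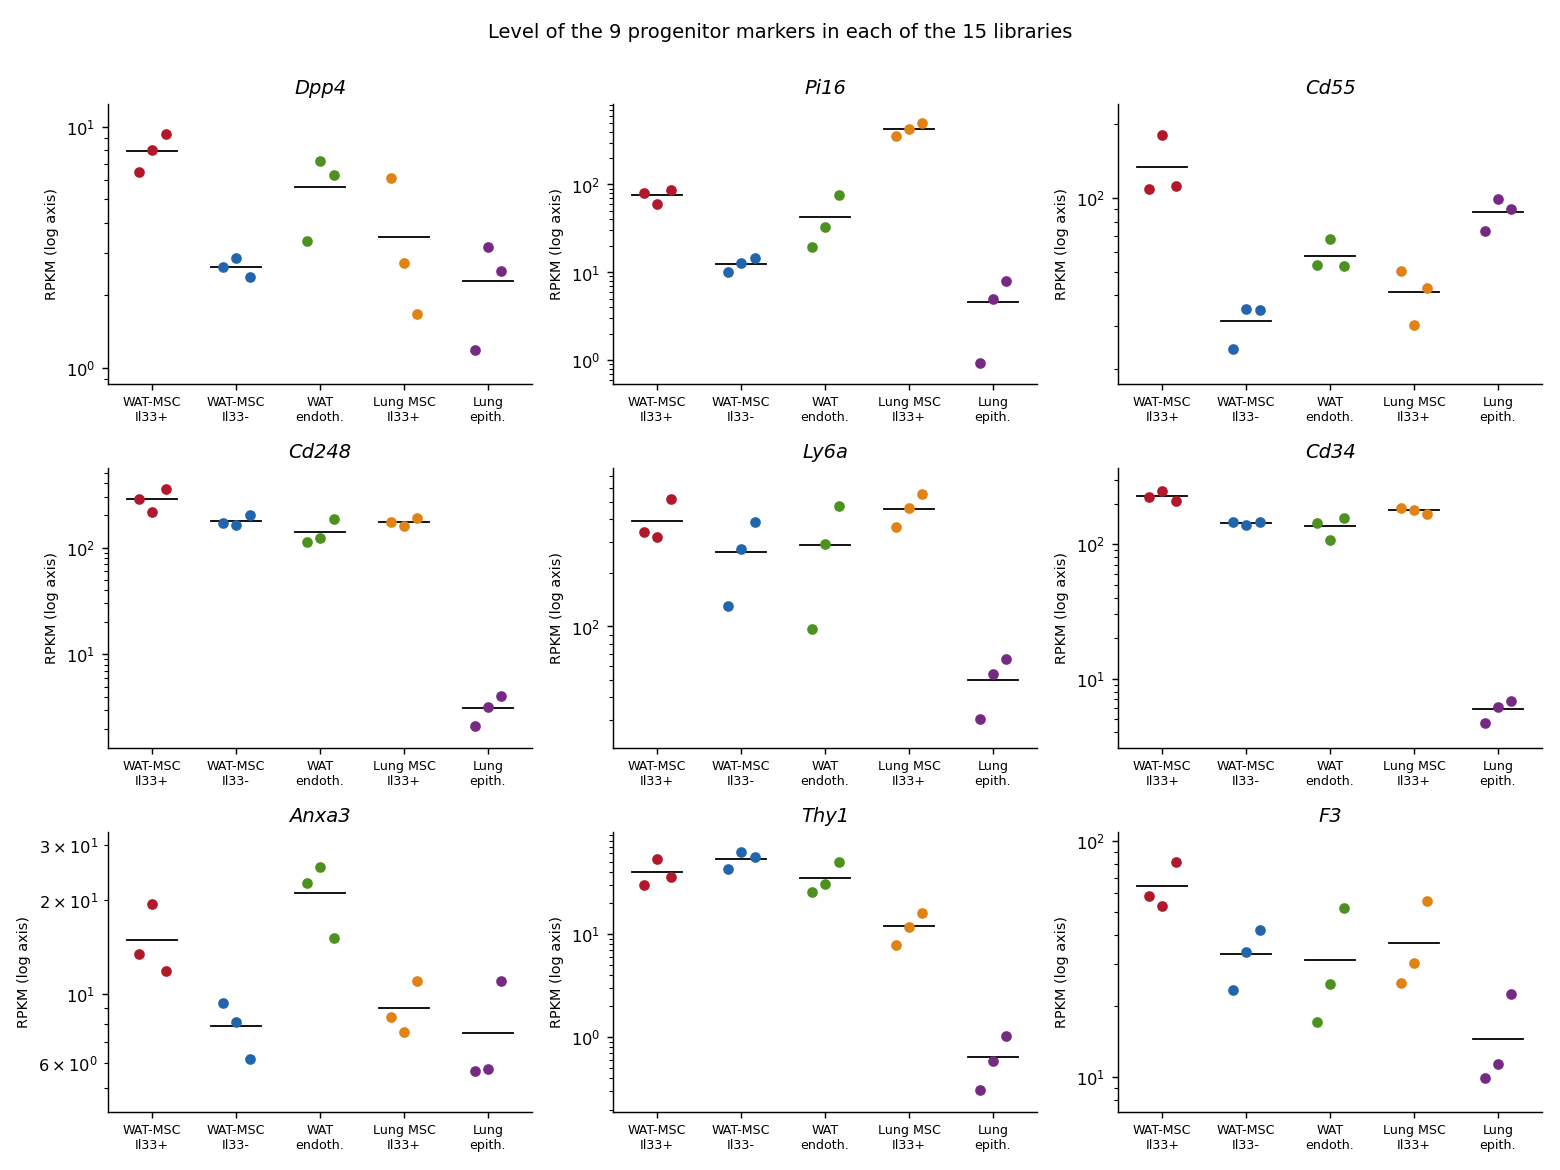
Level of each of the 9 genes in RPKM on a log axis (vertical), with 1 point for each library and a line at the mean of 3 libraries, for the 5 populations (horizontal). Il33+ WAT-MSCs have the highest mean for 5 genes (Dpp4, Cd55, Cd248, Cd34 and F3), lung Il33+ MSCs for Pi16 and Ly6a, endothelium for Anxa3 and Il33- WAT-MSCs for Thy1.

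Il33+ WAT-MSCs were first set against Il33- WAT-MSCs, the comparison of 2 fractions of the same gate. Pi16 was 6.11-fold and Cd55 4.26-fold higher by mean RPKM in the Il33+ fraction, and these were the 2 of 9 genes that passed the test. The test was limma on log2(RPKM + 1) over 8448 genes with p adjusted after Benjamini and Hochberg and called under 0.05. It passed 1.57% of all genes, 0.923% as higher in the Il33+ fraction. On that log2 scale, which understates the change of low genes, Pi16 differed by 2.52 ± 0.241 (SE; adjusted p = 0.00126) and had the second smallest p of all genes. Cd55 differed by 2.04 ± 0.265 (SE; adjusted p = 0.00435). The call of Pi16 held in 14 of 14 alternative settings and that of Cd55 in 13 of 14, being lost without a filter on low genes (adjusted p = 0.0579). In bulk RNA, fewer cells of a type and less RNA per cell cannot be told apart.

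Dpp4 did not pass, although its mean was 3.04-fold higher in the Il33+ fraction and its libraries did not overlap. Its log2 difference was 1.30 ± 0.295 (SE; adjusted p = 0.0579), and it passed under median-ratio scaling (adjusted p = 0.0480). F3 differed by 0.95 ± 0.271 on the log2 scale (SE; adjusted p = 0.148) and passed under median-ratio scaling and, with the replicate number as a block, in 2 of 14 settings in all. Anxa3 (log2 difference 0.83, adjusted p = 0.257), Cd248 (0.66, adjusted p = 0.299) and Cd34 (0.65, adjusted p = 0.200) had 95% intervals above 0 but did not pass. Ly6a (0.68, adjusted p = 0.534) and Thy1 (-0.43, adjusted p = 0.596) had intervals that held 0, from -0.13 to 1.48 for Ly6a and from -1.01 to 0.15 for Thy1.

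As a group, 7 of the 9 genes had libraries that did not overlap, all higher in the Il33+ fraction, and 17.5% of all genes tested did not overlap in one direction or the other. The median log2 difference of the 9 was 0.83, against -0.01 over all 8448 genes. Over the 12 pan-stromal genes the median was 0.41, with 1 of them called higher and 0 lower in the Il33+ fraction. The differences had 1 sign in both sequencing lanes for all 9. In lane 1 (2 libraries against 2) Pi16 differed by 2.53 and Cd55 by 2.23 on the log2 scale, and in lane 2 (1 against 1) by 2.49 and 1.65.

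Other genes of the same states were read from lists that were chosen with earlier results of these data known. Of 22 tested companions of the early progenitors, 7 rose in the Il33+ fraction and 0 fell, where 0.923% of all genes were called higher. Their median log2 difference was 0.93. Among the called, Sema3c, a secreted semaphorin, had the largest difference (2.10, adjusted p = 0.00462), followed by Efhd1, a mitochondrial calcium-binding protein (1.86, adjusted p = 0.0137), and Cmah, which makes a form of sialic acid (1.80, adjusted p = 0.0321). Of 15 tested genes of committed preadipocytes, 6 fell and 0 rose, with a median of -0.81, where 0.651% of all genes were called lower. They were led by Plin2, a coat protein of lipid droplets (-2.59, adjusted p = 0.00861), Agt, the precursor of angiotensin (-2.48, adjusted p = 0.0166), and Ggt5, an enzyme of glutathione metabolism (-1.85, adjusted p = 0.00613). Of the 15, 8 were lower in every Il33+ library than in any Il33- library. The other way, Sparcl1 (1.03, adjusted p = 0.0634) and Rarres2 (0.58, adjusted p = 0.448) were higher in every Il33+ library and did not pass. With the replicate block, under median-ratio scaling or with all 15 libraries in one fit, 1 gene of this list rose.

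The companions of the F3+ state went the same way as those of the early progenitors. Of 10 tested, 4 rose in the Il33+ fraction and 0 fell, where 0.923% of all genes were called higher. Their median log2 difference was 1.15. The leading 3 were the homeobox factor Meox2 (2.45, adjusted p = 0.00797), the ephrin receptor Epha3 (2.27, adjusted p = 0.0173) and the oxygenase Fmo2 (2.17, adjusted p = 0.00187). Without 1 library, 4 to 6 early companions rose (4 without Il33+ replicate 2), 3 to 6 committed genes fell (3 without Il33+ replicate 1 or 2 or without Il33- replicate 2 or 3), and 1 to 4 F3 companions rose (1 without Il33+ replicate 1 and 2 without Il33+ replicate 3 or Il33- replicate 2). Without a filter on low genes, 1 gene of each list passed.

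**Figure D2:**
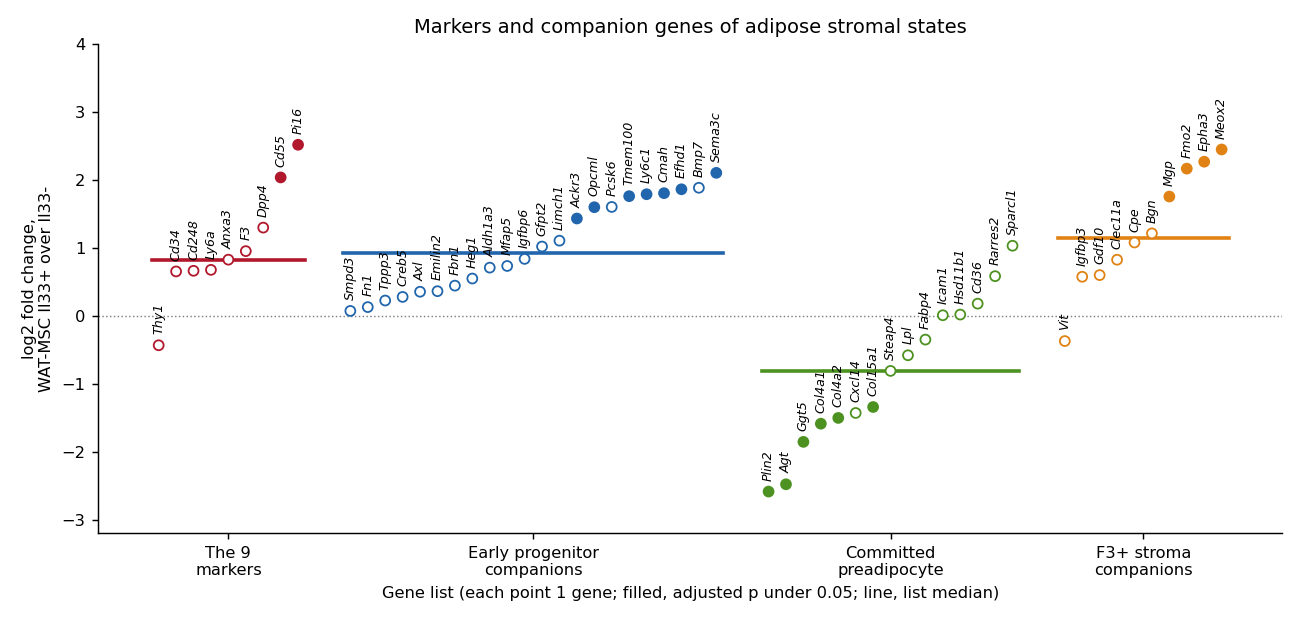
Difference between Il33+ and Il33- WAT-MSCs on the log2(RPKM + 1) scale (vertical) for the 9 markers and 3 lists of stromal state genes (horizontal), with 1 point for each gene tested, filled where the adjusted p was under 0.05, and a line at the median of each list. The medians are 0.83 for the 9 markers, 0.93 for the early companions, -0.81 for the committed genes and 1.15 for the F3 companions.

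Markers of other cells also differed between these 2 fractions. Of the 10 mesothelial genes listed, 9 were in the table, and their summed level was 63.2 to 177 RPKM in the Il33+ against 37.3 to 54.4 RPKM in the Il33- fraction. Of 8 tested, 2 rose, Upk1b (log2 difference 2.90, adjusted p = 0.0393) and Gpm6a (2.64, adjusted p = 0.0174). The median log2 difference of the 8 was 2.32, above that of the 9 markers and of the 3 lists of stromal states. Of the 8, 4 did not overlap, all higher in the Il33+ fraction, and 6 had an unadjusted p under 0.05 by limma. Over all 8448 genes, 0.923% were called higher, 17.5% did not overlap in one direction or the other and 980 had such an unadjusted p. The defining genes did not pass. Msln (adjusted p = 0.436) was at 1.01, 4.62 and 9.04 RPKM in the Il33+ and at 0.01, 1.17 and 2.39 RPKM in the Il33- fraction, and Upk3b (adjusted p = 0.0732) at 7.13, 13.15 and 20.76 against 0, 3.44 and 3.20 RPKM. The 9 genes of pericytes and smooth muscle summed to 33.3 to 39.7 RPKM in the Il33+ and 6.89 to 18.1 RPKM in the Il33- fraction, with Cspg4 at 1.03 RPKM or less in both. Of this list Abcc9, a subunit of potassium channels, rose from 1.59 ± 0.259 to 19.1 ± 1.54 RPKM (SD, n = 3 each), with a log2 difference of 2.96 (adjusted p = 0.00126) and the smallest p of all genes. Rgs5 was at 8.29, 16.40 and 11.07 against 1.80, 4.55 and 6.83 RPKM and did not pass (adjusted p = 0.174). The 6 leukocyte genes found of 10 went the other way, at 10.8 to 28.5 against 42.2 to 84.3 RPKM, with Cd52 at 0.23 RPKM or less. The part of these cells in the differences above was not tested.

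Il33+ MSCs of WAT and of lung shared the reporter but not the marker pattern. Pi16 was 5.60-fold higher by mean RPKM in lung, whereas Cd55 was 3.25-fold and Thy1 3.36-fold higher in WAT. These were the 3 of 9 genes that passed the test, which called 6.00% of 8554 genes, 2.50% as higher and 3.50% as lower in WAT. On the log2 scale Pi16 differed by -2.47 ± 0.210 (SE; adjusted p = 1.47e-04), Cd55 by 1.66 ± 0.257 (SE; adjusted p = 0.00350) and Thy1 by 1.68 ± 0.292 (SE; adjusted p = 0.00682), WAT over lung, and each call held in 14 of 14 alternative settings.

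A further 4 genes were higher in every WAT library than in any lung library without passing. Dpp4 differed by 1.10 on the log2 scale (adjusted p = 0.128) and passed without lung replicate 1, whose Dpp4 of 6.12 RPKM lay near the WAT values (adjusted p = 0.0398). Cd248 differed by 0.70 (adjusted p = 0.101) and passed without Il33+ WAT-MSC replicate 2 (adjusted p = 0.0266). Anxa3 differed by 0.66 (adjusted p = 0.200) and Cd34 by 0.35 (adjusted p = 0.347). F3 overlapped between the organs (0.84, adjusted p = 0.155) and passed without lung replicate 3 (adjusted p = 0.0308). Ly6a differed by -0.24, with a 95% interval from -0.79 to 0.31. Of the 9, 7 did not overlap, 6 higher and 1 lower in WAT, and 23.1% of all genes did not overlap in one direction or the other.

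Within each lane Pi16 (-2.31 in lane 1 and -2.41 in lane 2), Cd55 (1.46 and 1.60) and Thy1 (2.23 and 1.33) kept their signs on the log2 scale, while Ly6a did not (-0.14 and 0.04). Of 23 tested early companions, 10 were higher in WAT and 1 lower, with a median log2 difference of 0.62 against 0.03 over all genes. Of all genes, 2.50% were called higher and 3.50% lower in WAT. Smpd3, a sphingomyelinase, led with 2.59, followed by Efhd1 with 2.11 and Tppp3, a tubulin-binding protein, with 2.08, and Limch1, a regulator of actomyosin, was lower in WAT (-2.06). Of 14 tested committed genes, 4 were higher in WAT, led by Lpl (lipoprotein lipase, 1.76), Col15a1 (a basement membrane collagen, 1.30) and Steap4 (a metalloreductase, 1.04), and Sparcl1, a matrix protein, was lower (-1.08). Of 11 tested F3 companions, the matrix gene Vit was higher in WAT (1.57) and Mgp, an inhibitor of calcification, was higher in lung (-2.88).

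Most early companions thus went the opposite way to Pi16. Limch1 was called higher in lung, and Opcml, a cell adhesion protein, was higher in every lung library (10.57 to 16.52 against 5.18 to 9.18 RPKM; adjusted p = 0.0931). Without Il33+ WAT-MSC replicate 2 the count called higher in lung was 2. Without 1 library, 5 to 8 early companions were higher in WAT, with 5 without lung replicate 1 and 6 without lung replicate 2 or Il33+ WAT-MSC replicate 1, and 6 were with all libraries in one fit. The 4 committed genes became 2 without lung replicate 2, and the 1 F3 companion higher in WAT became 4 without Il33+ WAT-MSC replicate 2 and 0 in one fit. Mesothelial genes summed to 21.4 to 29.3 RPKM in lung MSCs against 63.2 to 177 RPKM in WAT, and Msln was at 0.39 RPKM or less in lung. Of 8 tested, 6 were called higher in WAT, against 2.50% of all genes called higher and 3.50% called lower there. The leukocyte genes summed to 189 to 201 RPKM in lung MSCs against 10.8 to 28.5 RPKM in WAT, with Cd52 at 0.24, 1.42 and 1.59 RPKM in lung. Most of the lung sum was Lyz2 (105 to 145 RPKM) and Cd74 (34.9 to 60.2 RPKM). The pericyte and smooth muscle genes summed to 106 to 114 RPKM in lung MSCs and 33.3 to 39.7 RPKM in WAT, with Abcc9 (-2.09) and Kcnj8 (-3.35) lower in WAT and Rgs5 (3.08) higher. Most of the lung sum was Abcc9 (77.0 to 93.0 RPKM). The defining genes were low in lung, Rgs5 at 0.18 to 0.81 RPKM against 8.29 to 16.40 RPKM in WAT, and Cspg4 at 0.10 to 0.37 RPKM against 0.57 to 1.00 RPKM. The endothelial genes summed to 65.7 to 95.2 RPKM in lung and 39.2 to 55.8 RPKM in WAT, and 4 of them, Pecam1 and Cdh5 included, were called lower in WAT. The epithelial genes summed to 180 to 545 RPKM in lung and 73.3 to 145 RPKM in WAT. Most of the WAT sum was Scgb1a1, at 71.2 to 134 RPKM there and 72.9 to 493 RPKM in lung. Epcam was at 0.28 RPKM or less and Cdh1 at 1.10 RPKM or less in both. The surfactant genes Sftpc (-4.90) and Sftpb (-2.34) were called lower in WAT. The part of these other cells in the differences between the organs was not tested.

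Against WAT endothelium, 0 of the 9 genes passed in Il33+ WAT-MSCs by limma over 8665 genes, of which it called 3.90%. An unadjusted p under 0.05 was found for 4 of the 9 and for 1335 of the 8665 genes. Cd55 (2.30-fold higher by mean RPKM; log2 difference 1.16, adjusted p = 0.0692), F3 (1.14, adjusted p = 0.203), Cd248 (1.02, adjusted p = 0.138) and Cd34 (0.75, adjusted p = 0.200) were higher in every Il33+ library than in any endothelial one. These were the 4 of 9 without overlap, and 23.2% of all genes did not overlap in one direction or the other. Over all genes the median difference was 0.18, falling to 0.03 under median-ratio scaling. Pi16 differed by 1.02 (adjusted p = 0.330), with a 95% interval from -0.01 to 2.04. Dpp4 (0.47), Ly6a (0.69), Thy1 (0.19) and Anxa3 (-0.47) had intervals that held 0, and the sign of Thy1 turned under median-ratio scaling (-0.01).

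Endothelial replicate 3 decided several of these values. Without it Pi16 (adjusted p = 0.0420) and F3 (adjusted p = 0.0365) passed. With all 15 libraries in one fit, Cd55 (adjusted p = 0.00920), Cd248 (adjusted p = 0.0174) and Cd34 (adjusted p = 0.0307) passed. Replicate 3 also held the most stromal RNA of the endothelial libraries. Its level was 64.8% of that of Il33+ WAT-MSCs for the median of 12 stromal genes, 100.3% for Pi16, 121% for Ly6a, 124% for Thy1 and 80.6% for F3. In replicate 1 the same values were 30.3% for the stromal genes, 25.5% for Pi16, 24.6% for Ly6a, 64.3% for Thy1 and 26.7% for F3. In replicate 2 they were 32.9% for the stromal genes, 43.4% for Pi16, 73.6% for Ly6a, 76.4% for Thy1 and 38.5% for F3, and Cd248 was at 39.2, 43.4 and 65.3% in replicates 1 to 3. Pi16, Ly6a, Thy1, F3 and Cd248 thus had the same order of the 3 endothelial libraries as the stromal median, though Ly6a differed widely between replicates 1 and 2, where the stromal median was close. Anxa3 did not follow them, at 153, 171 and 101% in replicates 1 to 3, nor did Cd55, at 40.0, 50.6 and 39.6%. Dpp4, at 42.2, 91.1 and 79.7%, and Cd34, at 63.4, 47.6 and 68.7%, did not follow that order either. Replicates 1 to 3 also differed in alignments (50622161, 54540816 and 60773158) and in the share of transcripts at 0 (10.9, 3.78 and 2.58%). Replicate 3 alone lay in lane 2. The part of stromal cells, of depth or of lane in the order of the endothelial libraries was not tested.

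**Figure D3:**
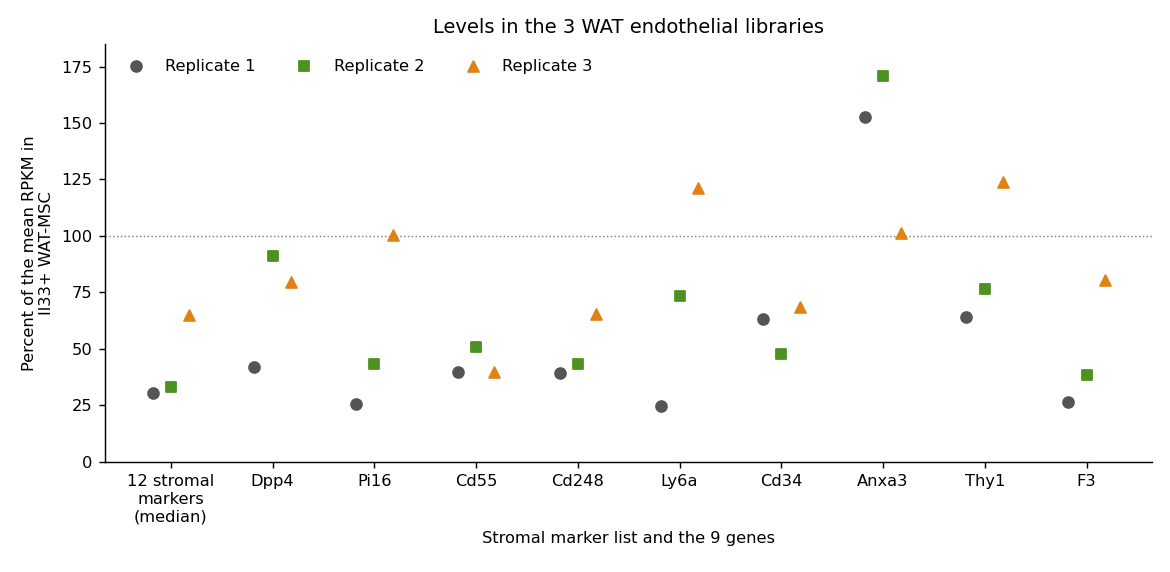
Level in each of the 3 WAT endothelial libraries as a percent of the mean RPKM of Il33+ WAT-MSCs (vertical), for the median of 12 pan-stromal genes and for the 9 genes (horizontal), with 1 symbol for each library and a dotted line at equal level. Replicate 3 is highest for the stromal median (64.8%) and for Pi16 (100.3%), while Anxa3 is above the line in every library.

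Against Il33- WAT-MSCs the order of several genes turned. Anxa3 (2.67-fold by mean RPKM), Pi16 (3.45-fold), Dpp4 (2.16-fold) and Cd55 (1.85-fold) were higher in every endothelial library than in any Il33- library. These were the 4 of 9 without overlap, and 23.8% of 8713 genes did not overlap in one direction or the other. None of the 9 passed by limma, which called 5.69% of all genes. An unadjusted p under 0.05 was found for 3 of the 9 and for 1477 of the 8713 genes. The log2 differences, Il33- over endothelium, were -1.30 for Anxa3 (adjusted p = 0.0588), -1.50 for Pi16 (adjusted p = 0.116), -0.88 for Cd55 (adjusted p = 0.134) and -0.83 for Dpp4 (adjusted p = 0.369). Anxa3 and Pi16 each passed in 4 of 14 alternative settings, Pi16 among them without endothelial replicate 1 (adjusted p from 0.0150 to 0.324 over the settings), and Cd55 in 1. Thy1 (0.62), Cd248 (0.36), F3 (0.19), Cd34 (0.09) and Ly6a (0.01) had intervals that held 0. The sign of Ly6a (-0.18) and of Cd34 (-0.10) turned under median-ratio scaling, which moved the median of all genes from 0.17 to 0.03. These 2 comparisons share the endothelial libraries, and the Il33+ libraries serve in 3 of the 5 comparisons.

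The early companions stood mostly above endothelium in Il33+ WAT-MSCs, at a median log2 difference of 0.96, but few passed. Of 23 tested, 13 did not overlap, all of them higher in Il33+ WAT-MSCs, and 12 had an unadjusted p under 0.05. Over all 8665 genes, 23.2% did not overlap in one direction or the other and 1335 had an unadjusted p under 0.05. Of all genes, 0.565% were called higher and 3.34% lower in Il33+ WAT-MSCs, and 1.60% higher and 4.10% lower in Il33- WAT-MSCs. Pcsk6, a proprotein convertase (1.54), and Fbn1, fibrillin-1 of elastic fibres (1.25), were higher in Il33+ WAT-MSCs, which made 2 of 23 tested, and Ly6c1 was lower in Il33- WAT-MSCs (-2.48), which made 1 of 21. The first count was 0 without Il33+ replicate 1, 2 or 3 or endothelial replicate 2 5 without endothelial replicate 3, 4 under median-ratio scaling and 9 with all libraries in one fit, and the second was 3 in one fit. Of 16 tested committed genes, Fabp4 (-5.07) and Cd36 (-4.60) were lower in Il33+ WAT-MSCs, both carriers of fatty acids that capillary endothelium also expresses, and 0 were higher (4 in one fit and 2 without endothelial replicate 3, while 7 of the 16 had an unadjusted p under 0.05 in either direction). In Il33- WAT-MSCs the same 2 genes were lower (-4.72 and -4.78) and 7 of 16 were higher, led by the chemokine Cxcl14 (3.57), Agt (2.58) and Col15a1 (2.43). That count of 7 became 2 without Il33- replicate 2, 3 without Il33- replicate 3 and 4 without Il33- replicate 1 or endothelial replicate 2. Of 10 tested F3 companions, 0 passed in Il33+ WAT-MSCs (6 had an unadjusted p under 0.05, and 4 passed with all libraries in one fit), while Meox2 (-3.09) and the peptidase Cpe (-2.24) were lower in Il33- WAT-MSCs. That count of 2 became 1 without Il33- replicate 1 or 2, 4 with the lane in the model, 5 with the replicate block and 6 with all libraries in one fit.

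Mesothelial, pericyte and leukocyte genes were also high in the endothelial libraries. The 9 mesothelial genes summed to 58.7 to 264 RPKM there. Of 8 tested, 4 were called lower in Il33- WAT-MSCs, against 4.10% of all genes. Against Il33+ WAT-MSCs 0 of 9 passed, and 1 had an unadjusted p under 0.05 by limma, as had 1335 of 8665 genes. The pericyte and smooth muscle genes summed to 220 to 294 RPKM and the leukocyte genes to 247 to 428 RPKM. Most of the leukocyte sum was Cd74 (186 to 272 RPKM), with Lyz2 at 7.59 to 94.8 RPKM and Cd52 at 0.61 to 5.56 RPKM. The 12 endothelial genes summed to 747 to 894 RPKM in endothelium and to 24.9 to 55.8 RPKM in the 6 WAT-MSC libraries. The part of these cells in the levels of the 9 genes was not tested.

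In lung, 7 of the 9 genes separated Il33+ MSCs from epithelium, where limma called 43.0% of 9352 genes, 24.4% as higher and 18.5% as lower in the MSCs. Pi16 was 91.2-fold, Cd248 55.0-fold, Cd34 30.3-fold, Thy1 18.4-fold, Ly6a 9.18-fold and F3 2.54-fold higher in the MSCs by mean RPKM. On the log2 scale the differences were 6.48 ± 0.486 for Pi16 (SE; adjusted p = 6.75e-06), 5.41 ± 0.231 for Cd248 (SE; adjusted p = 7.01e-07) and 4.71 ± 0.205 for Cd34 (SE; adjusted p = 7.01e-07). Ly6a (3.22, adjusted p = 3.00e-05) and Thy1 (2.93, adjusted p = 7.70e-05) followed, and these 5 held in 14 of 14 settings. As the gate of the lung MSCs is not given, Cd34 and Ly6a may have been part of that sort. Their differences from epithelium are therefore a description. Among genes higher in the MSCs, the log2 difference of Pi16 was the largest in the fit as reported. The libraries of the 7 genes did not overlap, 6 higher and 1 lower, and 53.4% of all genes did not overlap in one direction or the other.

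F3 differed least of the 6 (1.29, adjusted p = 0.0187) and did not pass without lung MSC replicate 3 or without epithelial replicate 2 (highest adjusted p = 0.0673). Cd55 went against the others, 2.13-fold higher in epithelium (log2 difference -1.09 ± 0.241 SE, adjusted p = 0.00503), in 14 of 14 settings. Dpp4 (0.38, 95% interval from -0.55 to 1.31) and Anxa3 (0.28, interval from -0.39 to 0.95) did not pass, and Dpp4 had opposite signs in the 2 lanes, 1.70 in lane 1 and -0.29 in lane 2. The median over all genes was 0.13, and -0.06 under median-ratio scaling, which moved the share of calls that were higher from 56.9 to 48.6%. Epithelial libraries held 1.60 to 2.60% of the stromal level of lung MSCs over the 12 pan-stromal genes, and 1.25 to 2.35% of that of Cd248. The leukocyte genes summed to 835 to 1718 RPKM in epithelium against 189 to 201 RPKM in lung MSCs. In epithelium most of this sum was Lyz2 (658 to 1301 RPKM) and Cd74 (153 to 387 RPKM), while Cd52 was at 0.33 to 5.11 RPKM. The part of leukocytes in these differences was not tested.

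Most stromal state genes were also higher in lung MSCs than in epithelium, in a comparison that called 24.4% of all genes higher and 18.5% lower. Of 21 tested early companions 19 were higher, led by Gfpt2, an enzyme of hexosamine synthesis (5.12), Igfbp6 (4.56) and Fbn1 (4.54), and Tppp3, known also from ciliated cells, was lower (-2.89). Of 15 committed genes 10 were higher, led by Rarres2 (chemerin, 5.62), Col15a1 (4.31) and Steap4 (3.91), and Cd36 (-2.11), Pparg, a regulator of lipid genes (-1.59), and Plin2 (-0.69) were lower. The count of 3 lower became 2 without any one lung MSC library or epithelial replicate 1 and 1 without epithelial replicate 2 or 3. Of 11 F3 companions 10 were higher, led by Gdf10, a member of the BMP family (4.78), Clec11a (4.44) and Mgp (4.31), and 5 of them passed without any one lung MSC library.

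**Figure D4:**
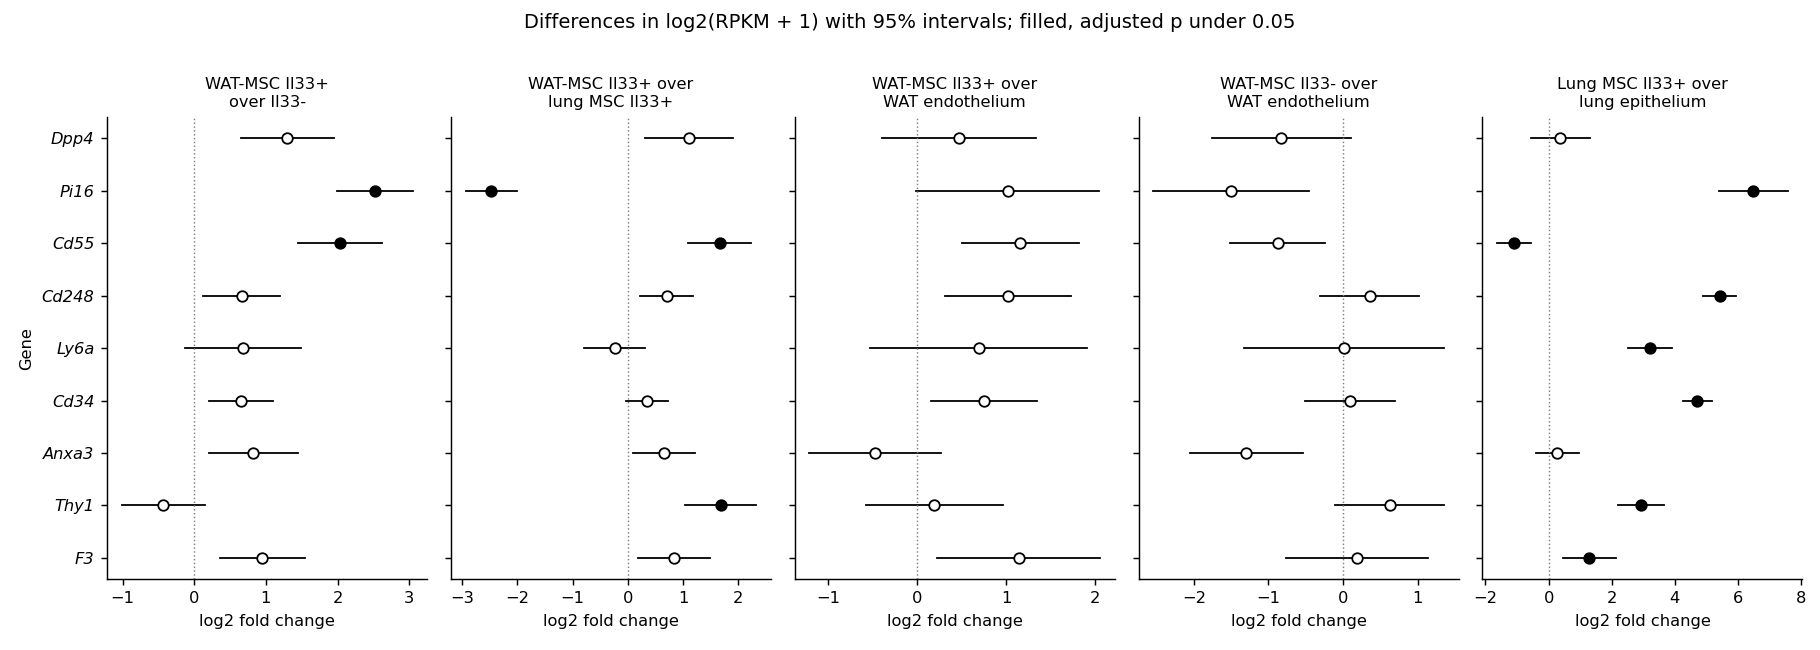
Difference of the 9 genes (vertical) in 5 comparisons on the log2(RPKM + 1) scale (horizontal, with its own range in each panel), as the estimate with its 95% interval, filled where the adjusted p was under 0.05. Pi16 is filled in 3 panels, with 2.52 between the WAT-MSC fractions, -2.47 for WAT over lung and 6.48 over lung epithelium, and no gene is filled against WAT endothelium.

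The 9 genes did not move as 1 block over the 15 libraries. Pearson's r on log2(RPKM + 1), given as a description over 15 libraries of 5 populations that share their sorts, was 0.99 between Cd248 and Cd34, 0.91 between Cd248 and Thy1, 0.87 between Ly6a and F3 and 0.83 between Pi16 and Ly6a. Cd55 had -0.11 to Pi16, -0.24 to Cd248 and -0.23 to Cd34, but 0.52 to Dpp4 and 0.33 to Anxa3. Dpp4 had its highest value with Anxa3 (0.60) and only 0.39 with Pi16, its partner in marking the early state.

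The genes most like Dpp4, Pi16 and F3 among 9560 symbols came as 3 different sets. Closest to Dpp4 were Prlr, the prolactin receptor (r = 0.89), Atad2 and A730020M07Rik (both 0.86), Gabarapl1 (0.83) and Cmah (0.81). Prlr had, like Dpp4, its highest mean in Il33+ WAT-MSCs (6.56 RPKM) and the next in endothelium (4.18 RPKM). Closest to Pi16 were Dkk3, an antagonist family member of Wnt signalling (0.97), the matrix protease Mmp3 (0.96), Sema3d (0.96), Sparcl1 (0.95) and the matricellular gene Cyr61 (0.95). All 5 had their highest mean in lung MSCs, for Mmp3 at 109 RPKM against 21.1 RPKM in the Il33+ and 1.76 RPKM in the Il33- fraction of WAT-MSCs. Closest to F3 were Fkbp5, a co-chaperone of steroid receptors (0.93), Ccdc88a (0.92), Maged2 (0.91), Ganab (0.91) and Lsmem1 (0.90), and Fkbp5 averaged 7.87 RPKM in the Il33+ and 3.21 RPKM in the Il33- fraction.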

How the data were processed

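RNA from 5 sorted populations, with 3 libraries of each, was amplified with the Ovation RNA-seq System V2 and sequenced on a HiSeq4000, per the study's methods. Alignment was by TopHat2 within Partek Flow (mm10 in the submitters' processing notes), and the authors deposited RPKM values with 2 decimals for 12698 RefSeq transcripts. RPKM is already scaled by transcript length and mapped reads, so a few abundant transcripts lower all others of a library. No strand setting was given in the sources used here, and 0 value columns lacked a sample.

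RPKM was summed over the transcripts of each of 10222 symbols, 1786 of which had more than 1. Differences came from limma 3.58.1 (R 4.3.3), with lmFit and a trended eBayes, on log2(RPKM + 1), a pseudocount of 1, within the 6 libraries compared. A gene was tested if 3 or more of these libraries reached an RPKM of 1, p was adjusted over all genes tested by the Benjamini-Hochberg method, and the threshold was 0.05. With 3 libraries on each side the smallest exact permutation p is 0.1, so the calls rest on the spread shared across genes. The fit was tested on simulated data with 200 changed genes. Tables were made in Python 3.11.15 (numpy 2.4.6 and pandas 2.3.3) and figures with matplotlib 3.10.9.

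The 9 genes, the lists and the tests were chosen with earlier results of these data known. Named are the 9 genes in every population, the Ly6 and Cd55 paralogues, the defining markers of each cell type list, up to 3 called genes in each direction from the lists of early progenitor, committed preadipocyte and F3+ stroma companions, and the 5 genes of highest Pearson r with Dpp4, Pi16 and F3 among symbols with a mean RPKM of at least 1. Il33, Scgb1a1, Upk1b, Gpm6a, Abcc9, Kcnj8, Opcml, Sftpc, Sftpb, Lyz2, Cd74 and the genes with overlapping exons stand outside this rule and were named after their values were seen. So were Sparcl1 and Rarres2 between the WAT-MSC fractions. Of the listed genes, Dact2, Dlk1, Adipoq, Cebpa, Muc16, Ptprc, Cd3e, Cd79a, Coro1a, Ly6c2 and Cd55b were not analysed here. Libraries lay in sequencing lane 1 (8) or lane 2 (7), per the library names in the labels. Alternatives were adding the sequencing lane or the replicate number to the model, fitting all 15 libraries together, scaling by median ratios, a pseudocount of 0.1, no filter or an RPKM of at least 5, the most abundant transcript of a gene, and each library left out in turn.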

Additional observations from a re-analysis of the deposited data

How the results depend on the processing

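Of the 9 genes, 2 passed between the WAT-MSC fractions (3 with the replicate block, 4 under median-ratio scaling, 1 without a filter on low RPKM and 2 without any one library), and 3 between WAT and lung (3 to 4 without 1 library). Against endothelium, 0 passed in Il33+ WAT-MSCs (3 with all 15 libraries in one fit, and 0 to 2 without 1 library, the 2 without endothelial replicate 3). In Il33- WAT-MSCs 0 passed as well (2 with the replicate block, 2 with the lane in the model, 2 in one fit, 1 under median-ratio scaling, 1 with the stricter filter, and 0 to 1 without 1 library, the 1 without endothelial replicate 1). In lung 7 passed, and 6 to 7 without 1 library. The cause was not tested.

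Between the WAT-MSC fractions 133 of all genes were called, 232 with the replicate block and 20 without a filter. With all 15 libraries in one fit, 336 in place of 513 were called for WAT against lung, 805 in place of 338 for Il33+ WAT-MSCs against endothelium and 1030 in place of 496 for Il33- WAT-MSCs against endothelium. Leaving out 1 library gave 49 to 121 between the fractions, with under 80 for every library but Il33- replicate 1. It gave 191 to 447 for WAT against lung, the low values without lung replicate 1 (238), 2 (191) or 3 (267). It gave 56 to 261 for Il33+ WAT-MSCs against endothelium, the low values without endothelial replicate 2 (56) or Il33+ replicate 1 (135), 2 (163) or 3 (152). It gave 140 to 414 for Il33- WAT-MSCs against endothelium, the low values without endothelial replicate 2 (140) or Il33- replicate 1 (252), 2 (246) or 3 (238). In lung 2835 to 3300 were called in place of 4019. Fewer libraries leave fewer degrees of freedom, and no other cause was tested.

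Among the 9 genes, signs turned only for differences that had not passed. Thy1 between Il33+ WAT-MSCs and endothelium (0.19) was -0.012 under median-ratio scaling and -0.036 to 0.46 without 1 library. Between Il33- WAT-MSCs and endothelium Ly6a (0.01) was -0.18 under that scaling and -0.63 to 0.51 without 1 library, Cd34 (0.09) was -0.099 and -0.062 to 0.20, and F3 (0.19) was -0.15 to 0.62 without 1 library. In lung Dpp4 (0.38) was -0.016 to 0.69 without 1 library. Dpp4 had no value under the stricter filter in the last 2 comparisons, where too few libraries reached the minimum.

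Same-numbered libraries within WAT and within lung also share a sequencing lane, but nothing says that they share mice or a day. Their deviations from the group means had correlations of 0.04 to 0.11 between the WAT-MSC fractions and of -0.07 to 0.16 over the 5 comparisons. Not every pair was above 0.1, so they were not taken as pairs. This check cannot tell whether the libraries were paired. The replicate block, which called 232 in place of 133 genes between the fractions, is therefore given as an alternative.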
